A study of Mus musculus with 8 samples.

Results

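The cells described here were 898 fibroblasts of mouse bone, called Clec3b Dpt Mfap5 fibroblasts after the genes that chose them, among 45328 cells kept from 8 single-cell RNA sequencing libraries. A kept cell held 500 to 6000 genes and at most 25% mitochondrial UMIs, where a UMI (unique molecular identifier) marks 1 captured RNA molecule. A member held at least 5 UMIs of Clec3b, Dpt and Mfap5 in sum, fewer than 3 of Kera and Tnmd (tendon genes), and none of Cdh5 (endothelium) or Ptprc (leukocytes). It also held fewer than 100 UMIs per 10,000 of the osteoblast genes Bglap and Bglap2, and fewer than 40 of the cartilage genes Acan, Hapln1 and Matn3. Because measured values chose the members, their levels of these genes are a description and carry no test.

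The libraries came from bone stromal cells of C57BL/6 wild-type female mice, encapsulated with the Chromium 3' v3 kit after magnetic bead depletion of blood lineage, CD45 and CD117 cells. The Control group was 12-week-old mice without a fracture. The Fracture group had the left leg broken by three-point bending at 10 weeks, held with an intramedullary nail, and was taken at day 14. Each group had 2 preparations with 2 libraries each. The 2 libraries of a preparation were summed, so n = 2 per group throughout; how many animals made up a preparation is not given in the sources used here, and p-values therefore measure only the spread between preparations.

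Fibroblasts of this kind lie outside the mineralised tissue, in the adventitia of vessels and in the sheaths around bone, muscle and tendon, and they build loose collagen networks. Clec3b encodes tetranectin, a plasminogen-binding protein; Dpt encodes dermatopontin, which binds decorin and aids collagen fibril assembly; Mfap5 encodes a glycoprotein of elastin-associated microfibrils. Tnxb (tenascin X) and Col14a1 (collagen XIV) are matrix proteins that space and tie collagen fibrils. In several tissues the Pi16 and Dpp4 cells of this lineage are regarded as a progenitor pool, while Postn, Cthrc1 and Lrrc15 are known marks of fibroblasts activated by injury.

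The 8 libraries held 48903 barcodes and between 56543151 and 89126291 UMIs each, and any pair of libraries shared 10 to 23 barcodes. The tables of the groups had been cut differently: 1788 Control and 13 Fracture barcodes fell under the gene limit, 2085 and 3 exceeded the mitochondrial limit, and the smallest Fracture barcode held 1929 UMIs. Median depth per kept cell was 7302 and 8278 UMIs in the Control and 11011 and 11694 in the Fracture preparations. Both libraries of Control preparation 1 held no gene whose name begins with U, against 276 to 279 such genes in each of the other libraries, so these genes were left out of the tests.

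The label was compared with Tnxb and Col14a1, the fibroblast markers that took no part in the rule. They were listed as markers with earlier results of these data known, so their excess is no independent check. Tnxb stood at 1136, 1173, 158 and 166 CPM (UMIs scaled to the same total in each sum) in the members of Control preparations 1 and 2 and Fracture preparations 1 and 2, and at 2.16 to 9.34 in the other cells. Col14a1 stood at 517, 404, 449 and 417 CPM, against 0.860 to 14.8. Both genes were far above the other cells in every preparation. The sum of these and the 3 rule genes, whose excess was fixed by the choice of members, was 5234, 4159, 3380 and 3167 CPM.

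Among genes with a mean of at least 50 CPM in the members, the 10 with the highest lowest ratio of members to other cells over the 4 preparations were Tnxb, Mfap5, Clec3b, Scg3, Dpt, Col14a1, Islr2, Pi16, Ccl7 and Hmcn2. The lowest ratio was 73.1 for Tnxb and 26.7 for Hmcn2. Scg3, a granin of secretory granules better known from endocrine cells, was at 103, 193, 5.05 and 6.27 CPM in the members and at 0.367 or less in the other cells. Islr2, an immunoglobulin and leucine-rich repeat protein, was at 82.8, 70.1, 28.5 and 28.5 CPM, against 0.989 or less. Pi16, a peptidase inhibitor of adventitial fibroblasts, was at 118, 125, 48.7 and 50.2 CPM, against 1.28 to 4.09.

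Some mesenchymal genes shared with other bone cells separated the members less. Pdgfra, the PDGF receptor of mesenchymal cells, was 3.79 to 4.46 times the level of the other cells. Col3a1 was 65.7, 105, 9.72 and 9.74 times their level. Col1a1 was lower in the members than in the other cells in every preparation, at 0.113, 0.0695, 0.770 and 0.735 times. Prg4, which encodes the joint lubricant lubricin, was unequal among preparations, at 4465, 16450, 1983 and 3540 CPM in the members.

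Near the threshold, 114 members held 5 or 6 UMIs of the 3 rule genes and 182 kept cells outside held 3 or 4. The median member held 18.5, 14, 20 and 21 of these UMIs in the 4 preparations. All 3 rule genes were detected in 52.9%, 51.4%, 49.9% and 51.2% of the members, and a single one in 25.7%, 32.4%, 24.3% and 23.8%. Of 1298 cells with at least 5 UMIs of the rule genes, 400 were left out, 282 of them by the limit on Kera and Tnmd. Of these 282, 9 came from Control and 273 from Fracture preparations.

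The fibroblasts made up a larger share of the Fracture suspension. There were 70 and 37 members among the kept cells of Control preparations 1 and 2, and 367 and 424 in Fracture preparations 1 and 2. These were 0.549% and 0.467% of kept cells in Control, with a mean of 0.508% ± 0.0578 (SD, n = 2), and 3.09% and 3.32% in Fracture, with a mean of 3.20% ± 0.158 (SD, n = 2). The groups did not overlap, and the means differed 6.31-fold, by 2.7 percentage points. With 2 against 2 preparations the two-sided exact permutation test gives p = 0.33, the smallest it allows.

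**Figure D1:**
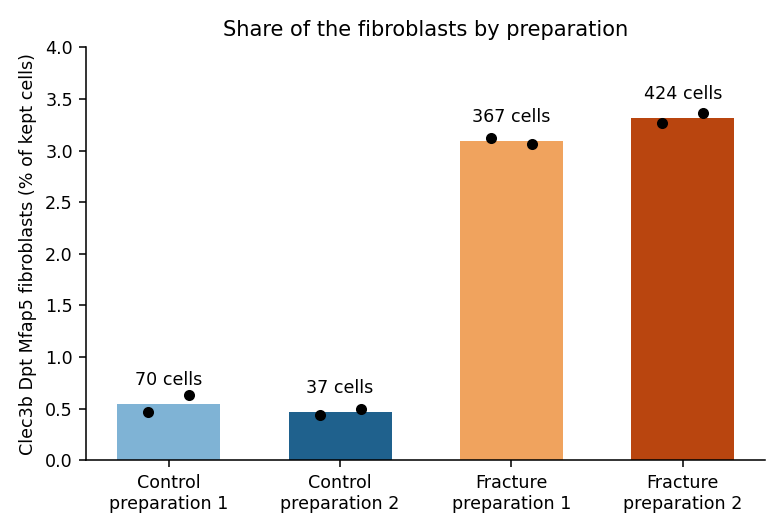
Share of the Clec3b Dpt Mfap5 fibroblasts among kept cells (%), by preparation, with the number of member cells above each bar; bars are the 2 libraries of a preparation pooled and points are the single libraries. The 4 Fracture libraries sit between 3.06% and 3.37%, and the 4 Control libraries between 0.441% and 0.634%.

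Fracture was also higher over another denominator and at equal depth. Among kept cells with Pdgfra and without Ptprc or Cdh5, the share was 1.33% and 1.33% in Control and 8.85% and 9.24% in Fracture. In another setting, cells under 2000 UMIs were left out, the others were drawn down to 2000 and the rule asked for 2. The shares were then 0.594%, 0.435%, 2.56% and 2.75%. The cells left out differed between the groups: of the endothelial cells, 2375 of 2626 remained in Control and 2679 of 2680 in Fracture. A share is relative to the other cells recovered, so more fibroblasts and fewer other cells cannot be told apart, and the different selection of barcodes in the groups moves with this result. In cells of at least 3000 UMIs, a depth above the smallest Fracture barcode, the shares were 0.634%, 0.535%, 3.09% and 3.32%.

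Between the groups, 711 genes were higher and 610 lower in the Fracture members at an adjusted p under 0.05 (edgeR quasi-likelihood test on summed counts, Benjamini-Hochberg adjusted). They are 6.75% and 5.79% of the 10533 genes tested, or 12.5% in either direction, and values of the 4 preparations separated the groups without overlap for 1318 of the 1321, against 58.9% of all genes tested. Without Fracture preparation 1 the counts were 174 higher and 124 lower, and without Fracture preparation 2 they were 193 and 147; the 10 largest rises and 10 largest falls named below were called in both. Those named genes were chosen as the largest changes among called genes of these same preparations, so their staying called is no independent check. Values below are CPM scaled by TMM factors, in the order Control preparation 1, Control preparation 2, Fracture preparation 1, Fracture preparation 2.

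Markers of other cells moved with the groups, and their levels are given here for every later comparison. Summed chondrocyte markers were at 3950, 1126, 5686 and 6783 CPM in the members, and 7 of the 9 tested were higher in Fracture. Summed osteoblast markers were at 743, 576, 4775 and 4724 CPM, with 5 of 8 higher and 1 lower. Summed erythroid markers were at 34.9, 99.9, 1394 and 2317 CPM, with 4 of 5 higher. Summed tendon markers were at 761, 340, 1729 and 1639 CPM, and summed synovial lining markers, Prg4 among them, at 4969, 17612, 2265 and 3822.

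Endothelial cells, defined by at least 2 UMIs of Cdh5, held more RNA of the first 3 lists than the members did in Fracture: 24540 and 25239 CPM of the chondrocyte list, 8297 and 8124 of the osteoblast list and 3446 and 3381 of the erythroid list. The rule limited Acan, Hapln1, Matn3, Bglap and Bglap2 in the members and not in the endothelial cells, so the lower chondrocyte and osteoblast sums of the members are partly set by it. They held less of the tendon list, at 377 and 394 CPM, and of the synovial lining list, at 138 and 151. The defining genes Cdh5 and Ptprc were at 0 in the members by the rule. Marrow stromal markers fell, from 1883 and 1876 to 402 and 448 CPM, with 5 of 7 lower. Mural markers were at 3260, 314, 735 and 638 CPM and leukocyte markers at 1243, 51.0, 41.2 and 61.9, so that Control preparation 1 stood apart in both. Of the 898 members, 763 held no mural, marrow stromal, myeloid or cartilage marker over a set limit, 49 of 70 in Control preparation 1. The part of these RNAs in the differences below was not tested, so the level in endothelial cells is given beside the rises where it was close to that of the members. A multiple of the endothelial level compares CPM without TMM factors, as the mean of the 2 Fracture preparations, and that level includes what endothelial cells express themselves. Of the 711 rises, 250 were at more than 2 times the endothelial level in Fracture and 207 were below it.

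The largest rises were in Saa3, Tnn, Ccl5, Cthrc1, Mmp13, Adam12, C1qtnf3, Fbn2, Nt5dc2 and Megf6. Saa3 (chr7:46711998-46715700, GRCm38, minus strand) encodes an acute-phase serum amyloid protein made locally in inflamed tissue. It was not detected in Control members and stood at 596 and 956 CPM in Fracture, at least 255-fold higher against a floor of 3 counts over the Control group. Endothelial cells of Fracture held 6.10 and 3.09 CPM of it. The edgeR adjusted p was 0.000437 (Benjamini-Hochberg).

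Tnn, tenascin N, an adhesive matrix protein of periosteum and developing bone, was at 5.37, 0, 390 and 307 CPM. The Control members held 3 UMIs of it in all, which gives a ratio of 111 with a 95% counting interval of 37.8 to 537. Cthrc1, a secreted protein of repair fibroblasts that promotes cell migration (chr15:39076932-39087121, plus strand), was at 30.4, 59.8, 2465 and 2223 CPM. Both Fracture values lay far above both Control values, a log2 change of 5.72 ± 0.29 (SE), with an adjusted p of 0.000131 from edgeR after Benjamini-Hochberg adjustment.

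Mmp13, the collagenase of bone and cartilage remodelling, was at 32.2, 8.54, 848 and 880 CPM, a log2 change of 5.35 ± 0.36 (SE). Fracture endothelial cells held 379 and 370 CPM of it, so the members were at 2.2 times that level. C1qtnf3, an adipokine also known as cartducin from cartilage, was at 17.9, 34.2, 791 and 860 CPM, 4.79 times the endothelial level. Fbn2, the fibrillin of developing tissue, was at 3.58, 6.41, 130 and 137 CPM, 21 times the endothelial level. In each of these genes the Fracture preparations lay close together and well above Control.

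The remaining large rises were low in Control. Ccl5, a chemokine for T cells and monocytes, rested on 1 Control UMI, with a ratio of 52.7 and an interval of 9.42 to 2088. Adam12, a membrane metalloprotease, rested on 3, with a ratio of 38.5 (13.2 to 187), and its Fracture level was 1.84 times the endothelial one. Megf6 rested on 2, with a ratio of 21.6 (5.94 to 179). Nt5dc2 rose by 4.54 ± 0.28 (SE) on the log2 scale, to 2.24 times the endothelial level.

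The largest falls were in Cytl1, Npy, Serpinb7, Myoc, Angptl7, Scg3, Vit, Fmo2, Dpp4 and Gpnmb. Cytl1 (chr5:37735519-37739820, plus strand) encodes a small secreted protein described in cartilage. It was at 1703 and 1032 CPM in Control and at 5.50 and 6.04 in Fracture, a log2 change of -7.87 ± 0.33 (SE) with an adjusted p of 0.000113 (edgeR with Benjamini-Hochberg adjustment). Myoc, the secreted glycoprotein myocilin (chr1:162639155-162649693, plus strand), was at 939, 677, 16.2 and 14.2 CPM, a log2 change of -5.73 ± 0.24 (SE). The groups lay far apart in both genes.

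Vit, the matrix protein vitrin, was at 258, 263, 13.9 and 9.05 CPM. Fmo2, a flavin-containing monooxygenase, was at 91.2, 98.3, 3.67 and 4.53 CPM. In the other Pdgfra cells described below Fmo2 was higher in Control and fell further, at 266, 273, 1.57 and 5.43 CPM. Angptl7 changed by -4.46 on the log2 scale in those cells and by -4.87 in the members, and Cytl1 by -2.19 and -7.87. What RNA from those cells adds to these falls was not tested. Npy, the neuropeptide Y precursor, was at 26.8, 53.4, 0 and 0.431 CPM. The Fracture members held 2 UMIs of Npy in all, a ratio of 176 in favour of Control with an interval of 45.5 to 1500. Scg3, which was detected in 6.57% of all members, was at 100 and 194 CPM in Control and at 5.24 and 6.68 in Fracture.

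**Figure D2:**
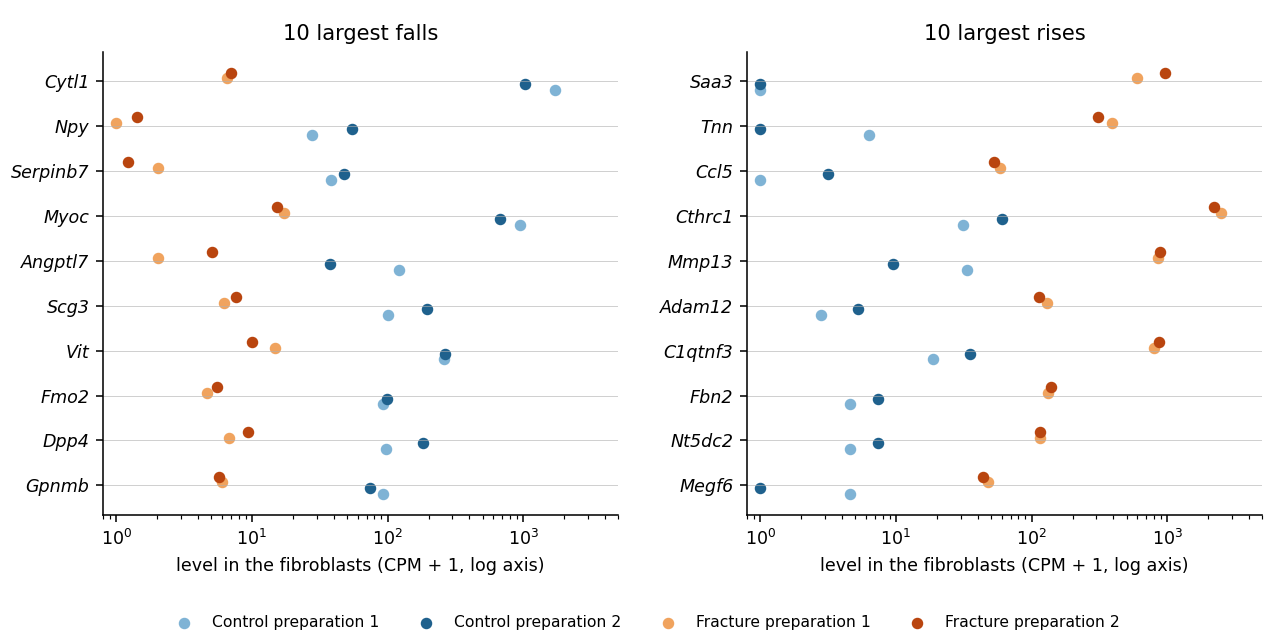
Levels of the 10 genes with the largest falls (left) and the 10 with the largest rises (right) in the fibroblasts, as TMM-scaled CPM plus 1 on a log axis, 1 point per preparation. Both Fracture points lie on one side of both Control points in all 20 genes, which the choice of genes without overlap fixed; Cytl1 went from 1703 and 1032 to 5.50 and 6.04 CPM, and Cthrc1 from 30.4 and 59.8 to 2465 and 2223.

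Of the 22 tested genes of the Pi16 Dpp4 adventitial list, 17 fell and 0 rose. The median log2 change was -1.43, while the median of all genes tested was -0.00017. The falls were 77.3% of the list, against 5.79% of all genes tested. The count was 10 without either Fracture preparation. The 5 not called were Has1, Ly6a, Cd248, Il33 and Limch1. Ugdh and Cmah were not tested. This list and the lists below were set with earlier results of these data known.

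Dpp4, the membrane peptidase CD26 of progenitor fibroblasts (chr2:62330073-62412231, minus strand), was at 96.6 and 182 CPM in Control and at 5.77 and 8.41 in Fracture, a log2 change of -4.24 ± 0.35 (SE). Pi16 (chr17:29317680-29330593, plus strand) was at 114, 126, 50.6 and 53.5 CPM, a log2 change of -1.20 ± 0.14 (SE). Both genes were lower in each Fracture preparation than in either Control preparation, Dpp4 by the wider margin. Opcml, a cell adhesion protein, fell by 5.35 ± 0.63 (SE) on the log2 scale, from 26.8 and 15 to 0.262 and 0.647 CPM.

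Wnt2 was at 17.9 and 115 CPM in Control and at 4.45 and 6.04 in Fracture. Cd55, a complement decay regulator also used as a marker of synovial lining, was at 352, 837, 111 and 112 CPM. The Control preparations differed from each other in both genes, and still did not overlap with Fracture. Igfbp6 and Igfbp5, binding proteins of insulin-like growth factors, were among the high-level members of the list. Igfbp6 was at 4949, 4240, 1556 and 1395 CPM and Igfbp5 at 5010, 5270, 1182 and 1466. Ly6a, which encodes the surface protein Sca-1, was at 1585, 1457, 1284 and 1216 CPM and was not called, with a log2 change of -0.28 ± 0.14 (SE).

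Of 20 activated fibroblast genes tested, 15 rose and 0 fell, with a median log2 change of 1.81. The rises were 75% of the list, against 6.75% of all genes tested. The count of rises was 9 without Fracture preparation 1 and 11 without Fracture preparation 2, and without either Control preparation 2 genes were called lower, Fn1 and Thy1 without Control preparation 1 and Acta2 and Tagln without Control preparation 2. Postn, the matricellular protein periostin of periosteum and healing tissue (chr3:54361109-54391037, plus strand), was at 109 and 143 CPM in Control and at 2363 and 2173 in Fracture. Its log2 change was 4.17 ± 0.20 (SE; edgeR, Benjamini-Hochberg adjusted p = 0.000131), and the Fracture level was 18.4 times the endothelial one. Lrrc15, a membrane protein of activated fibroblasts, was at 48.3, 64.1, 314 and 266 CPM, 31.4 times the endothelial level. Timp1, an inhibitor of metalloproteases, was at 249, 581, 1944 and 1793 CPM.

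Tnc, tenascin C, was at 116 and 12.8 CPM in Control and at 653 and 609 in Fracture, so that the Control preparations were uneven. Spp1, osteopontin, rose from 136 and 103 to 3285 and 3217 CPM, but Fracture endothelial cells held 3484 and 2636 CPM of it. Runx2, the transcription factor of osteoblast lineage, was called higher as well and was at 0.93 times the endothelial level. The genes of contraction on the list were not called. Acta2, smooth muscle actin, was at 1722, 220, 646 and 569 CPM, and Tagln at 832, 143, 309 and 274, with the Fracture values between the Control ones. Both were called in opposite directions with 1 Control preparation left out, higher without Control preparation 1 and lower without Control preparation 2, and both were called higher, by 4.19 and 4.30 on the log2 scale, when members holding markers of other cells were left out. Fn1, Thy1 and Fap were not called either.

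**Figure D3:**
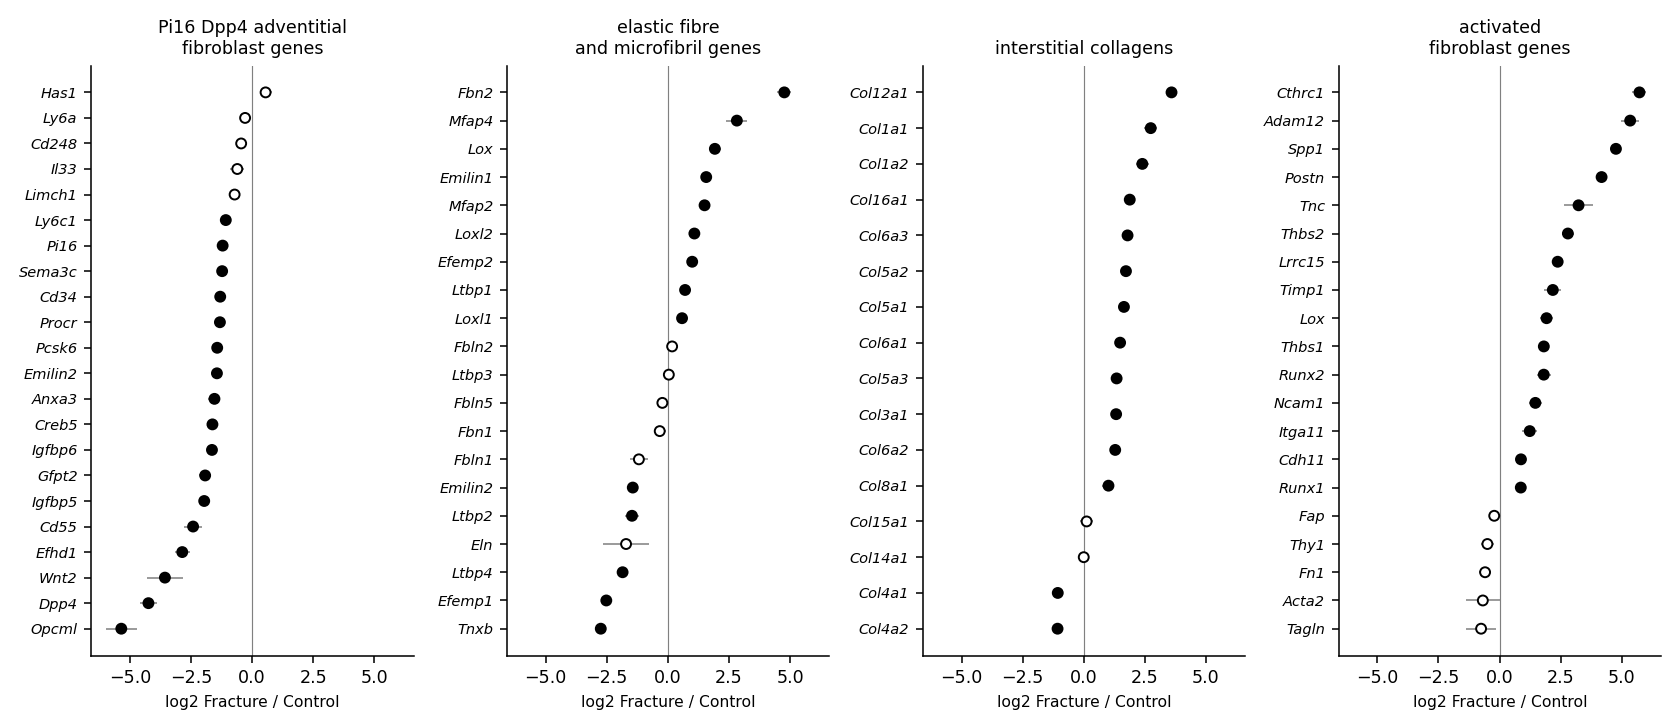
Log2 change of Fracture over Control in the fibroblasts for the tested genes of 4 lists, with bars of 1 SE (n = 2 preparations per group); filled points passed an adjusted p of 0.05. In the adventitial list 17 of 22 points are filled and below 0, in the collagens 12 of 16 are filled and above 0, in the activated list 15 of 20 are filled and above 0, and in the elastic fibre list filled points lie on both sides.

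Of 16 interstitial and related collagens tested, 12 rose and 2 fell, with a median log2 change of 1.42. These were 75% and 12.5% of the list, against 6.75% and 5.79% of all genes tested. Without either Fracture preparation 11 rose and 0 fell. Col1a1 and Col1a2 encode the chains of collagen I. Col1a1 was at 3854, 2194, 20263 and 20221 CPM and Col1a2 at 3992, 2290, 16342 and 16785. In both chains the Fracture preparations were nearly equal and above Control, at 2.39 and 2.2 times the endothelial level.

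Col12a1, a fibril-associated collagen of tendon and periosteum, had the largest change of the list, 3.59 ± 0.19 (SE), from 78.7 and 85.4 to 1076 and 902 CPM. Col3a1, the collagen of loose and healing tissue, was at 11108, 7412, 23212 and 23231 CPM, 25.4 times the endothelial level. The 2 that fell were Col4a1 and Col4a2, the chains of basement membrane collagen. Col4a1 was at 486, 461, 201 and 253 CPM. Col14a1 was level, with a log2 change of 0.00 ± 0.16 (SE), and Col15a1 was not called.

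The elastic fibre and microfibril genes moved in opposite directions, with 9 of 20 higher, 5 lower and a median log2 change of 0.11. These were 45% and 25% of the list, against 6.75% and 5.79% of all genes tested. Without Fracture preparation 1 the counts were 5 and 4, and without Fracture preparation 2 they were 5 and 3. The 9 were Mfap2, Mfap4, Fbn2, Emilin1, Efemp2, Ltbp1, Lox, Loxl1 and Loxl2, and the 5 were Emilin2, Efemp1, Ltbp2, Ltbp4 and Tnxb. The 3 lysyl oxidases, which crosslink collagen and elastin, were all among the rises, Lox from 114 and 209 to 626 and 592 CPM. Tnxb fell to 164 and 177 CPM from 1105 and 1179, a log2 change of -2.74 ± 0.15 (SE), with the Control preparations close together and far above Fracture. Efemp1, fibulin 3, fell from 175 and 171 to 27.8 and 32.3 CPM. In the other Pdgfra cells described below it changed by -4.59 on the log2 scale, against -2.52 in the members. Fbn1, the main fibrillin of adult tissue, was at 968, 1681, 1062 and 1038 CPM and was not called.

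Among 10 small leucine-rich proteoglycans, which bind collagen fibrils and set their width, Bgn, Lum, Aspn and Omd rose and Dcn, Podn and Ecm2 fell. These were 40% and 30% of the list, against 6.75% and 5.79% of all genes tested. Bgn, biglycan, was at 2135, 1950, 5049 and 5168 CPM. Dcn, decorin, was at 18962, 13275, 7907 and 7945 CPM. The order of the groups was thus opposite in these genes. Lum rose from 1919 and 852 to 3376 and 3477 CPM, while Omd, at 66.6 and 66.4 CPM in Fracture, was at 0.38 times the endothelial level. Fmod did not pass the test, with a log2 change of 2.08 ± 0.64 (SE). The median of the list was 0.92, and without either Fracture preparation 2 genes rose and 0 fell.

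Of 20 protease and inhibitor genes, 8 were higher and 3 lower, with a median log2 change of 0.98; without either Fracture preparation the counts were 4 and 1. With all preparations 40% of the list were called higher and 15% lower, against 6.75% and 5.79% of all genes tested. Of the 8 rises, 1 was below the endothelial level in Fracture. Mmp14, a membrane-anchored collagenase, was at 157, 224, 814 and 783 CPM. Mmp2, the gelatinase that it activates, was at 503, 222, 1296 and 1328. Pcolce2, an enhancer of procollagen processing, fell by 3.81 ± 0.26 (SE) on the log2 scale, from 884 and 1440 to 88.8 and 76.5 CPM. Mmp3, stromelysin, was at 157, 2.14, 360 and 1019 CPM and did not pass the test (edgeR, Benjamini-Hochberg adjusted p = 0.0729). Mmp9 was at 0 and 4.27 CPM in Control and at 14.4 and 6.25 in Fracture and was not called.

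Signalling genes changed in smaller numbers, and without either Fracture preparation each of the 4 lists below had at most 2 rises and 3 falls. Without Control preparation 2 the BMP and TGF-beta list had 4 rises and 7 falls, and without Control preparation 1 the IGF list had 4 rises and the Wnt list 1 fall. When members holding markers of other cells were left out, the chemokine and cytokine list had 5 rises and 1 fall. The BMP and TGF-beta list then had 0 rises and 3 falls. Dkk2, Wif1, Tgfb3 and Chrdl1 were among the genes not called. With all members, 16.7%, 11.1%, 5% and 18.2% of the chemokine, Wnt, BMP and IGF lists were called higher. The shares called lower were 22.2%, 33.3%, 25% and 27.3%. Over all genes tested 6.75% were called higher and 5.79% lower. Of 18 chemokines and cytokines, Cxcl1, Cxcl2 and Cxcl10 rose and Ccl11, Cxcl12, Kitl and Il34 fell, with a median of -0.12. Cxcl12, a chemokine that retains blood stem cells in marrow, was at 1388, 1529, 330 and 350 CPM. The summed marrow stromal list, of which it is a member, fell with it, and Fracture endothelial cells held 366 and 434 CPM. At least 20 UMIs of Cxcl12 per 10,000 were held by 8 of 70, 4 of 37, 20 of 367 and 22 of 424 members. Without these members and those holding mural, myeloid or cartilage markers the log2 change of Cxcl12 was 0.49 and not called, an alternative that removes cells by their Cxcl12. Kitl, stem cell factor, fell from 87.6 and 96.1 to 9.96 and 8.19 CPM. Cxcl1, a neutrophil chemokine, rose from 32.2 and 15 to 138 and 211 CPM. Cxcl10, at 42.7 and 41.0 CPM in Fracture, was at 0.74 times the endothelial level.

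Of 9 genes of secreted Wnt regulators, the agonist Rspo3 among them, Dkk3 rose and Sfrp4, Dkk2 and Wif1 fell. Rspo3 was the median gene, with a log2 change of -0.96, and was not called. Sfrp4, a secreted Frizzled-related protein, was at 1370, 1892, 333 and 360 CPM. Of 20 BMP and TGF-beta genes, Tgfb3 rose and Bmp2, Bmp4, Chrdl1, Gdf10 and Tgfbr3 fell, with a median of -0.08. Bmp2, an inducer of bone formation, was at 66.2, 79.0, 11.5 and 12.7 CPM, and Bmp4 was at 39.3, 44.9, 4.45 and 4.96. Both ligands were lower in each Fracture preparation. Of 11 IGF axis genes, H19 and Igfbp4 rose and Igf1r, Igfbp5 and Igfbp6 fell, with a median of 0.13. H19, an imprinted non-coding RNA of fetal tissue, rose from 17.9 and 25.6 to 157 and 173 CPM, 3.16 times the endothelial level.

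The remaining lists are given beside the share of all genes tested, 6.75% called higher and 5.79% called lower. Of 15 mesenchymal receptors and surface genes, Nt5e rose and Pdgfra and Cd34 fell, with a median of 0.13. Without Fracture preparation 1 1 fall of that list was called, and without Fracture preparation 2 these 3 genes were not. Of 10 genes of complement and C1q-domain proteins, the adipokine C1qtnf3 rose and Cd55 fell, with a median of 0.29. Without Control preparation 1 the rises numbered 4, and without Control preparation 2 the falls numbered 4. C3 was at 388, 115, 402 and 599 CPM and was not called. Of 10 adipogenic genes, Plin2 rose and Pparg, Cebpa, Lpl and Zbtb16 fell, with a median of -1.54; Plin2 was at 0.571 times the endothelial level. The falls numbered 1 without Fracture preparation 1, 3 without Fracture preparation 2 and 2 without Control preparation 1, and Plin2 was not called without either Fracture preparation. Lpl, lipoprotein lipase, fell from 513 and 188 to 52.1 and 49.1 CPM. When members holding markers of other cells were left out, only 1 fall of the adipogenic list was called, and Lpl and Cebpa were not called.

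Of 20 immediate early genes, 8 were higher and 2 lower (median 0.44), and all 8 rises were at 0.929 times the endothelial level in Fracture or less. Without either Fracture preparation 3 were higher. Fos, for example, was at 429, 237, 1036 and 1225 CPM in the members, with TMM factors, and at 1100 and 1212 without them in Fracture endothelial cells. Of 15 cycling genes, 7 were higher and 0 lower (median 0.87), 4 of them below the endothelial level. Without either Fracture preparation 1 was higher. When members with at least 5 Prg4 UMIs were left out, an alternative added after the data were seen, edgeR called 0 of the 15 and 5 had an unadjusted p under 0.05.

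The members were not uniform. To compare the share of cells in which a gene was detected, each member was thinned to 2000 UMIs, which left out 2 of the 898, both in Control preparation 1. Endothelial cells were thinned in the same way for comparison, and so were the few erythroid cells with at least 3 UMIs of Alas2, 31 in Control and 58 in Fracture. A share in either holds free RNA and what those cells express themselves. Before thinning, median depth was 7628, 10839, 9650 and 10562 UMIs in the members and 5274 and 8080 in the endothelial cells of Control and Fracture. Shares that are not thinned are given for Postn, Lrrc15 and Dpp4.

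Postn was detected in 20.6% and 13.5% of Control members and in 78.5% and 77.6% of Fracture members, against 1.47% and 7.73% of the endothelial cells of Control and Fracture and 10 of 58 erythroid cells (17.2%) of Fracture. Without thinning it was found in 21.4%, 16.2%, 89.9% and 91.7% of members. Lrrc15 was detected in 7.35%, 5.41%, 35.7% and 32.5%, against 0.0421% and 0.784% in endothelial cells, and without thinning in 14.3%, 16.2%, 64.9% and 59.9%. In both genes the Fracture shares lay close together and above both Control shares. The exact permutation p for each is 0.33, the smallest possible with 2 against 2 preparations.

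Dpp4 went the other way, with 7.35% and 24.3% of Control members and 1.09% and 1.89% of Fracture members, against 0.926% and 0.112% of endothelial cells. Without thinning the shares were 27.1%, 45.9%, 4.36% and 4.95%. Pi16 was detected in 10.3%, 10.8%, 3.27% and 5.66%, against 2.65% and 1.38% of endothelial cells. Prg4 was found in 36.8% and 48.6% of Control and 23.4% and 28.1% of Fracture members, against 2.69% and 2.16%. All 3 were found in fewer members of each Fracture preparation than of either Control preparation.

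Mmp13 was found in 1.47% and 2.7% of Control members, under the 4.08% of Control endothelial cells, and in 24.0% and 23.1% of Fracture members, over the 12.4% of Fracture endothelial and 12.1% of Fracture erythroid cells. Fabp5, a fatty acid binding protein, was found in 7.35%, 0%, 15.3% and 11.8% of members, below the endothelial 17.9% and 25.4% in each preparation, and 0 of 37 cells allows a share of cells with a UMI, at this depth, of up to 8.11%. Fabp5 was found in 1 of 31 Control erythroid cells (3.23%) and in 0 of 58 of Fracture, which allows up to 5.17% at this depth. Without thinning it was found in 12.9% and 13.8% of the erythroid cells, 15.7%, 8.11%, 35.1% and 33.7% of the members and 32.0% and 53.9% of the endothelial cells. Top2a or Mki67, genes of dividing cells, were found in 10.9% and 11.6% of Fracture members, below the 18.5% of Fracture endothelial cells. Col15a1 and Cxcl12 overlapped between the groups. Fracture shares of Acta2 were 28.9% and 24.5%, above the 22.1% and 5.41% of Control.

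**Figure D4:**
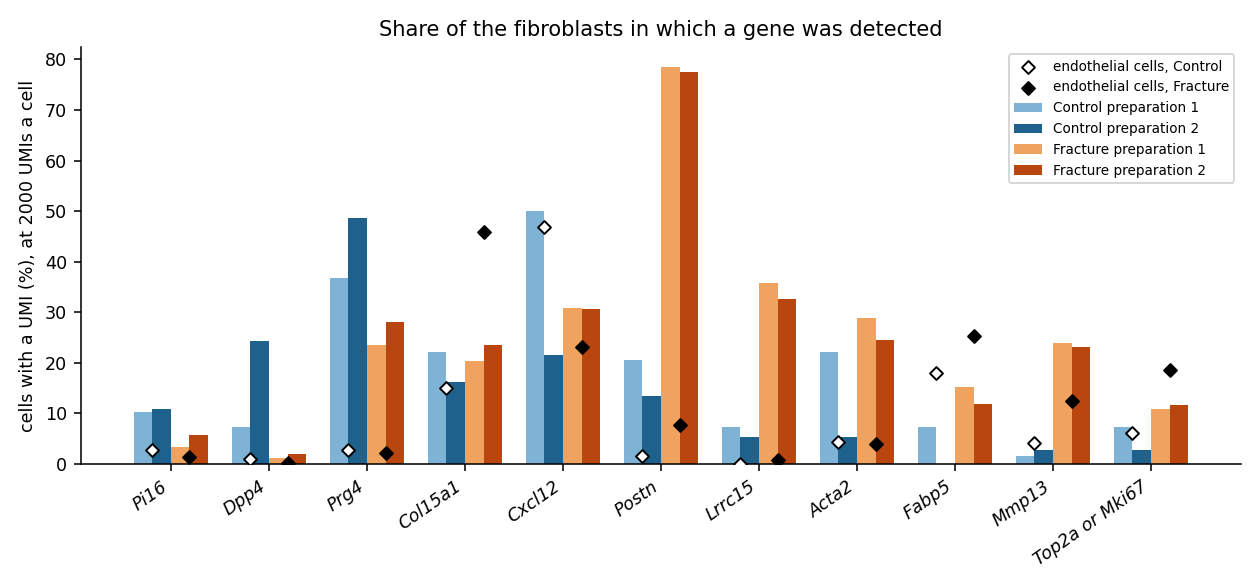
Share of the fibroblasts (%) with at least 1 UMI of each gene after thinning to 2000 UMIs a cell, by preparation (bars), with endothelial cells thinned in the same way for comparison (open diamonds Control, filled diamonds Fracture). Postn bars are at 78.5% and 77.6% in Fracture against 20.6% and 13.5% in Control, while the Fabp5 bars lie below the endothelial diamonds.

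Prg4 was unevenly held. At least 5 UMIs of Prg4 were held by 20 and 16 Control members and by 72 and 97 Fracture members, 28.6%, 43.2%, 19.6% and 22.9% of each preparation. Clic5, Htra4 and Tspan15, which with Prg4 mark synovial lining, were also higher in these cells in each preparation. Cd55 and Has1, of the same list, were not so in every one: in Control preparation 2 Cd55 was at 355 CPM with Prg4 and at 1223 without, and in Control preparation 1 Has1 was at 67.3 and 68.4. In the 2 Fracture preparations Clic5 was at 70.7 and 74.1 CPM in members with Prg4 and at 1.27 and 0.272 CPM in the others. Postn ran the other way in Fracture, at 1501 and 991 CPM with Prg4 and at 2480 and 2401 CPM without. As Prg4 defined these subsets, the values are a description. After thinning, Lrrc15 was found in 0 of 7, 0 of 4, 4 of 12 and 5 of 24 members with Pi16 and in 8.20%, 6.06%, 35.8% and 33.3% of those without Pi16, with too few Pi16 cells for a comparison.

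For comparison with neighbouring mesenchyme, the same sums were made for 3563 other cells with at least 2 UMIs of Pdgfra and fewer than 5 of the rule genes, under the same limits on other markers. The numbers were 1162, 1042, 602 and 757 in the 4 preparations, and their make-up also differs between the groups. The difference of the fracture effects was tested with the preparation as a block. Here and below a larger effect is a more positive log2 change and a smaller effect a more negative one, whatever its size. A gene that fell less in the fibroblasts thus counts as larger. The effect was larger in the fibroblasts for 760 genes and smaller for 636, which are 5.47% and 4.58% of the 13899 genes tested. Without Fracture preparation 1 these counts were 471 and 360, without Fracture preparation 2 they were 413 and 284, and without Control preparation 1 the smaller effects numbered 1023.

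In the adventitial list the effect was smaller in the fibroblasts for 15 of 23 tested genes and larger for 2, Igfbp5 and Limch1. Its median change was -1.43 in the fibroblasts and 0.93 in the other cells. The other cells were chosen to hold few UMIs of the rule genes, and several genes of the list were low there. Efhd1 was at 1.12, 1.35, 0.870 and 1.98 CPM there and Creb5 at 7.74, 3.27, 8.53 and 12.3, while Cd55 was at 32.9, 24.7, 21.9 and 21.8. Col14a1, outside the list, rose there from 3.97 and 1.54 to 17.2 and 23.8 CPM. What the opposite medians owe to this choice of cells was not tested. Cd34, a surface sialomucin, changed by -1.30 in the fibroblasts and by 1.75 in the other cells (log2), where it was at 3.87, 2.12, 7.14 and 12.8 CPM. Igfbp5 fell in both, by 1.96 and 3.87 on the log2 scale. Dpp4 and Pi16 did not pass the test of the difference, and both were almost absent from the other cells, at 2.09 CPM or less in each preparation.

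The activated list was mixed. Of 20 genes, 10 had a larger and 5 a smaller effect in the fibroblasts. Postn rose by 4.17 in the fibroblasts and 1.37 in the other cells, and Tnc rose by 3.23 against a change of -1.11. Lrrc15 had the smaller effect in the fibroblasts, 2.38 against 6.26, having started from 0.713 and 0.577 CPM in the other Control cells. Thy1, a surface glycoprotein of fibroblasts, was at 142, 270, 160 and 143 CPM in the members and rose from 0.815 and 0.385 to 27.0 and 30.8 CPM in the other cells, which remained below the fibroblasts.

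**Figure D5:**
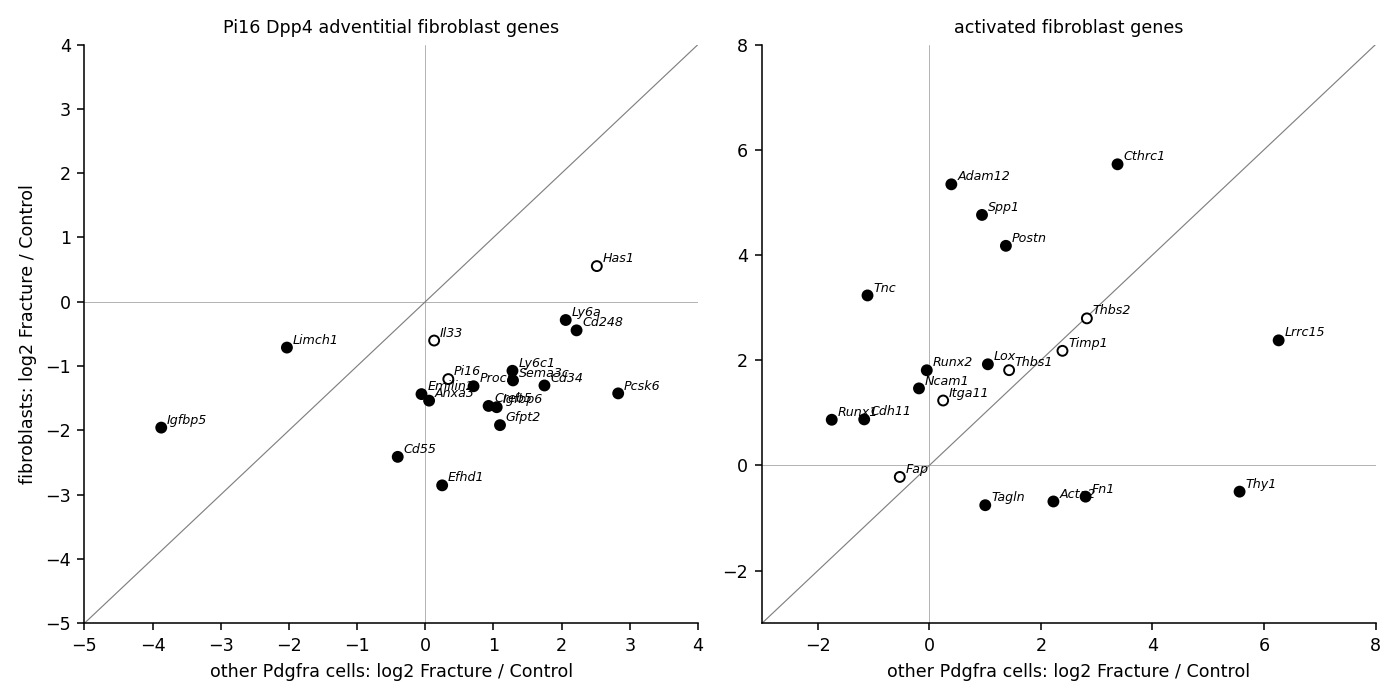
Log2 change of Fracture over Control in other Pdgfra cells (horizontal) and in the fibroblasts (vertical) for the adventitial list (left) and the activated list (right), for genes with both values; filled points passed the test of the difference at an adjusted p of 0.05 and the line marks equal change. In the adventitial list nearly all points lie below the line, with Igfbp5 and Limch1 above it; in the activated list Postn (4.17 and 1.37) lies above and Lrrc15 (2.38 and 6.26) below.

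Other lists were also compared. Of 16 collagens, 7 had a larger, or more positive, and 3 a smaller effect in the fibroblasts. Col4a1 and Col4a2 are among the 7 and fell in both classes. Their changes were -1.06 and -1.07 in the fibroblasts and -2.58 and -2.32 in the other cells. Of 11 interferon genes, 7 were larger and 1 smaller, with a median log2 change of 0.95 in the fibroblasts and -1.22 in the other cells. Of 11 complement genes, 6 were larger and 1 smaller, with medians of 0.29 and -2.58. Cfd is among the 6 and rested on Fracture preparation 2, with 1, 0, 1 and 1419 UMIs in the members. Of 20 immediate early genes, 10 were smaller and 0 larger, with medians of 0.44 and 1.64. The tendon-like cells, kept out of the members by the limit on Kera and Tnmd, were not compared, since the Control preparations held 18 and 4 of them.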

How the data were processed

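Deposited raw UMI counts per gene and barcode of 8 libraries were used, without normalisation by the authors. The submitters' processing notes name bcl2fastq 2.19.1.403, UMI-tools 1.0.0, STAR 2.7.3a, Subread featureCounts 1.6.4 and mm10; the published methods name STARsolo and EmptyDrops, and which step selected the barcodes is not settled. The members and gene lists were chosen with earlier results of these data known.

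Member counts were summed per preparation (543790 and 470590 UMIs in Control, 3959806 and 4944553 in Fracture) and tested with edgeR 4.0.16 (TMM, filterByExpr, quasi-likelihood test, Benjamini-Hochberg adjustment over all genes tested, call under 0.05) in R 4.3.3. The script was tested on simulated data. Rule genes stayed in the library sizes and out of the calls. DESeq2 1.42.0, other scalings, filters and member rules, and leaving out each preparation were alternatives. Doublets, scored per library with scrublet in scanpy 1.11.5, were kept: 5 of 718 called cells were members, and in 2 Fracture libraries only 1 and 5 cells were called, so that the caller did not work there. Coordinates are from GENCODE M21 (GRCm38). Intervals, and limits from a count of 0 (3 counts), cover counting error only.

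Named genes were the 10 largest rises and falls among called genes with no overlap between groups and a mean of at least 20 CPM, outside the rule, marker lists and haemoglobins; up to 4 members of each list with the largest change, and any member needed to describe it; the 10 highest ratios of members to other cells; and the 5 largest differences of effect in each direction.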

Additional observations from a re-analysis of the deposited data

Results flagged for a closer look

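10 genes changed differently in the fibroblasts and in the other Pdgfra cells by the test of the difference of the fracture effects (edgeR with the preparation as a block, Benjamini-Hochberg adjusted). They are the 5 largest differences in each direction at a mean of at least 20 CPM.

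Cfd, complement factor D, had the largest difference, 12.08 on the log2 scale, but it rested on Fracture preparation 2, where the members held 306 CPM against 1.70, 0 and 0.262 in the other preparations. Without that preparation the difference was 2.34 and not called. A2m differed by 9, with 0, 0, 3 and 4 UMIs in the members, while the other cells fell from 118 and 222 to 10.8 and 12.6 CPM. Saa3 differed by 8.96 and rose in both classes, in the other cells from 8.45 and 0.673 to 316 and 331 CPM, and the difference was not called without Control preparation 1. Gm10497 differed by 8.79, with 0 Control UMIs and 6.55 and 10.3 CPM in Fracture members, against 34.8 to 44.1 CPM in the other cells. For these genes a fitted difference against a count of 0 is no bound. Cxcl10 differed by 7.02, rising from 0 and 6.14 to 42.7 and 40.9 CPM in the fibroblasts and going from 30.2 and 106 to 3.31 and 11 CPM in the other cells.

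Hmcn2, an extracellular hemicentin, had a difference of -7.16, at 76.3, 98.2, 8.13 and 8.62 CPM in the members and at 1.57 CPM or less in the other cells, whose Control preparations held 1 UMI in all, so that this fitted difference is no measure of size. Pcolce2 had a difference of -6.23, falling in the fibroblasts and rising from 44.2 and 18.3 to 171 and 164 CPM in the other cells. Cytl1 had a difference of -6.13, at 168, 20.8, 27.5 and 14.7 CPM in the other cells. Thy1 had a difference of -5.99. Frzb, a Wnt antagonist, had a difference of -5.02, at 27.1, 30.7, 28.3 and 31.7 CPM in the members and rising from 5.4 and 4.91 to 181 and 171 CPM in the other cells.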

How the results depend on the processing

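The counts of higher and lower genes were 414 and 429 with DESeq2, 1322 and 926 without a filter on low counts, and between 174 and 911 higher and 124 and 767 lower when 1 preparation was left out. The preparation numbers were not used to pair the samples. The deviations of same-numbered preparations correlated at -0.0189 over genes, which cannot exclude a shared batch with Control sums this small. With a replicate block 421 and 393 genes were called. For the difference of effects, leaving out 1 preparation gave 413 to 1010 larger and 284 to 1023 smaller effects. All 1321 calls kept their sign with DESeq2, other size factors and the block; the 10 largest rises and 10 largest falls were also called in each of these and without each preparation. As these genes were chosen as the largest changes in the same data, their staying called is no independent check. With at least 10 UMIs in the rule 9 of the 10 falls were tested and called, with the 8 libraries as replicates 7, and without members holding Prg4 8 of 9. The difference in share was 2.00 points with 10 UMIs, 2.44 with 5 per 10,000 UMIs, 2.14 with thinned cells, 7.71 among Pdgfra cells and 2.37 without members holding markers of other cells, the last added after seeing the data, and 2.58 to 2.81 when 1 preparation was left out. Values that changed sign were, on the log2 scale and without members holding markers of other cells, 4.19 for Acta2, 4.30 for Tagln, 0.47 for Cebpa, 0.49 for Cxcl12, 0.31 for Rspo3, -0.23 for Col14a1 and -0.018 for Col15a1; with 10 UMIs in the rule 0.36 for Acta2, 0.32 for Tagln, 0.054 for Wif1 and -0.086 for Col14a1; without members holding Prg4 0.71 for Wif1, -0.14 for Col15a1 and -0.046 for Col14a1; and with 5 per 10,000 UMIs -0.53 for C2 and 0.14 for Fap. Col14a1, level in the report, was also at -0.0082 with other size factors, -0.0084 with DESeq2 and -0.030 with 8 libraries. It was at -0.0032 in members of at least 3000 UMIs, -0.023 without doublets and -0.025 without Fracture preparation 1. Without Control preparation 1 and without Control preparation 2 the changes were 1.48 and -1.48 for Acta2, 1.04 and -1.49 for Tagln, 0.18 and -0.12 for Col14a1, 0.69 and -0.23 for Col15a1, -0.67 and 0.14 for Fbn1, -0.88 and 0.032 for Thy1 and -2.36 and 1.05 for Notum, and the differences in share were 5.79 and -0.0484 points for Col15a1 and 9.10 and -19.3 points for Cxcl12. Of these genes Cebpa, Cxcl12 and Wif1 were called with all members; the cause was not tested. Other values of named genes kept their call in 1737 of 2037 cases, with 223 lost and 48 gained. The 10 largest differences of effect kept their call in 89 of 100 cases; 3 lost it without the replicate block (Cfd, A2m and Saa3), 3 with 5 per 10,000 UMIs in the rule (A2m, Saa3 and Gm10497), 2 without members holding markers of other cells (Gm10497 and Cytl1), and 1 each without Control preparation 1, Control preparation 2 and Fracture preparation 2. Keeping genes beginning with U gave 499 and 456 calls. The 37 members of Control preparation 2 held 470590 UMIs, which limits low genes.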
